A study of Homo sapiens with 12 samples.

Results

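The 10 genes described here are used as markers of astrocytes, neural stem cells and the mesenchymal form of glioma: CHI3L1, CD44, GFAP, VIM, NES, FABP7, SOX2, SOX2-OT, SOX9 and DCLK1. They were taken as every probe set (a group of array probes for one transcript) that the platform's probe table assigns to one of these symbols and to no other gene. This gave 25 of the 17313 probe sets that name 1 gene, and 10 of 10346 genes. CD44 had 8 of them, SOX2 had 3, and CHI3L1, GFAP, FABP7, NES, SOX9 and DCLK1 had 2 each. VIM and SOX2-OT had 1 each. The brightest probe set of a gene is the one with the highest mean over all arrays, and it lay in the highest quartile of levels for 8 of the 10 genes, the exceptions being DCLK1 in the third quartile and CHI3L1 in the second.

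The cells were U251, an established human glioblastoma line of astrocytic origin, and the study asked what single and combined loss of ETV6 and NFKB1 does to its transcriptome. ETV6 is an ETS family transcription factor that represses its targets, and the NF-kB subunit p50 is made from the NFKB1 product. Small interfering RNA (siRNA) pools were delivered with a lipid reagent, RNA was taken from the cells, and each of 12 samples was hybridised to 1 Affymetrix expression array. There were 4 groups of 3 arrays: double siRNA (the ETV6 and NFKB1 pools together), ETV6 siRNA alone, NFKB1 siRNA alone, and a control siRNA that targets no known human transcript. Each siRNA was at 50 nM, and the labels do not say whether total siRNA was matched between double siRNA and the other groups. A single cell line was used. Nothing in the labels says that replicates were grown as separate cultures, and the p-values therefore cover only the spread among these arrays, which may be technical. All levels are log2 values and a difference of 1 is a 2-fold change.

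GFAP, vimentin (VIM) and nestin (NES) are intermediate filament proteins: nestin and vimentin mark neural progenitors and reactive or transformed glia, and GFAP marks astrocytes. SOX2 and SOX9 are transcription factors that hold neural progenitors in an undifferentiated or glial state, and FABP7 is the fatty acid binding protein of radial glia. CHI3L1, a secreted chitinase-like protein also called YKL-40, and CD44, the cell surface receptor for hyaluronan, are standard markers of mesenchymal glioblastoma, a form linked to NF-kB activity.

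The targeted genes were lowered by their own siRNA. ETV6, on its brightest probe set 225764_at, had a log2 level of 7.36 ± 0.08 with double siRNA, 6.73 ± 0.11 with ETV6 siRNA, 8.70 ± 0.05 with NFKB1 siRNA and 8.87 ± 0.26 with control siRNA (SD, n = 3 each). NFKB1 on 209239_at had 6.55 ± 0.05, 7.81 ± 0.06, 6.59 ± 0.47 and 7.32 ± 0.15 in the same 4 groups. ETV6 transcript was left at 35.1% of control with double siRNA and 22.6% with ETV6 siRNA, and NFKB1 transcript at 58.8% with double siRNA and 60.3% with NFKB1 siRNA (limma, adjusted p between 3.10e-06 and 0.00988). The NFKB1 probe set lay between the 10.1th and the 43.2th percentile of its array and is not shown to be above background. Its NFKB1 siRNA arrays had 6.95, 6.75 and 6.05, so the fall was largest in replicate 3. With ETV6 siRNA NFKB1 was 0.50 above control without overlap, but was not called (adjusted p = 0.144). ETV6 was 0.64 higher with double siRNA than with ETV6 siRNA alone (adjusted p = 0.000289). The second ETV6 probe set, 235056_at, was left at 32.2% with double siRNA and 19.9% with ETV6 siRNA, and was called higher with NFKB1 siRNA (0.40, adjusted p = 0.0122), where 225764_at gave -0.17 (adjusted p = 0.236). The double siRNA arrays stood apart from the other 9: their poly-A spike-in probe sets averaged 7.97 to 8.05, against 8.37 to 9.35, and the difference between 3' and 5' ACTB control probe sets, which grows as RNA or labelling favours the 3' end, was 2.05 to 2.16, against 1.52 to 1.91. Control siRNA replicate 3 had the 1.91, and the other control and single siRNA arrays had at most 1.73. The part of these differences in the results with double siRNA was not tested, and every such result below was measured on arrays with these values. The GAPDH control probe sets did not set them apart: their 3' minus 5' difference was 0.46 to 0.51 with double siRNA, against 0.37 to 0.54. Probe sets for neuron markers existed for 3 of 9 genes on this list (SYT1, GAD1 and SLC17A7), none above the 38.9th percentile of its array, with a summed log2 level of 8.46 to 8.50 in double siRNA, 8.38 to 8.42 in ETV6 siRNA, 8.07 to 8.12 in NFKB1 siRNA and 8.04 to 8.35 in control siRNA. The endothelial receptor KDR, the 1 of 5 endothelial markers with a probe set here, had 7.15 to 7.76, 7.36 to 7.57, 5.99 to 6.56 and 7.08 to 7.38 in the same order, and leukocyte and epithelial markers were not analysed here. SYT1 rose (0.83) and GAD1 fell (-0.46) with double siRNA, SLC17A7 rose (0.39) and SYT1 fell (-0.68) with NFKB1 siRNA, KDR fell with NFKB1 siRNA (-0.89), and none of these was called with ETV6 siRNA (0 also at an unadjusted p under 0.05). The part of either list in the results was not tested.

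One gene of the 10 rose with ETV6 siRNA, 3 fell with NFKB1 siRNA, and with double siRNA 2 rose and 3 fell, each on its brightest probe set at an adjusted p under 0.05 (called, limma with Benjamini-Hochberg adjustment over all probe sets). ETV6 siRNA raised CHI3L1 and lowered 0 of the 10, where 2.59% of all genes were called higher and 4.27% lower. At an unadjusted p under 0.05 there were 3 lower genes, GFAP, FABP7 and SOX9. On the brightest probe sets NFKB1 siRNA lowered CHI3L1, CD44 and SOX2 and raised 0 (1 at an unadjusted p under 0.05). Over all genes 12.5% were called higher and 22% lower. Of the dimmer marker probe sets 2 were called higher with NFKB1 siRNA, both of CD44, so CD44 had calls in both directions. Double siRNA raised SOX2-OT and DCLK1 and lowered GFAP, NES and SOX9, which is 5 of 10 where 32.3% of all genes were called higher and 45.2% lower. Over probe sets, 3 of 25 were called with ETV6 siRNA (6.35% of all probe sets), 7 with NFKB1 siRNA (34.9%) and 17 with double siRNA (76.4%). With every array shifted to the same median, 3 genes were again called with NFKB1 siRNA but 2 of them, FABP7 and SOX9, were higher, and the share of higher calls among all called probe sets was 54.7% (53% after quantile normalization), against 31.9% on the deposited scale. The same shift moved the median change of all probe sets with double siRNA to -0.15, against -0.04 as deposited, and differences of that size depend on the scaling.

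**Figure D1:**
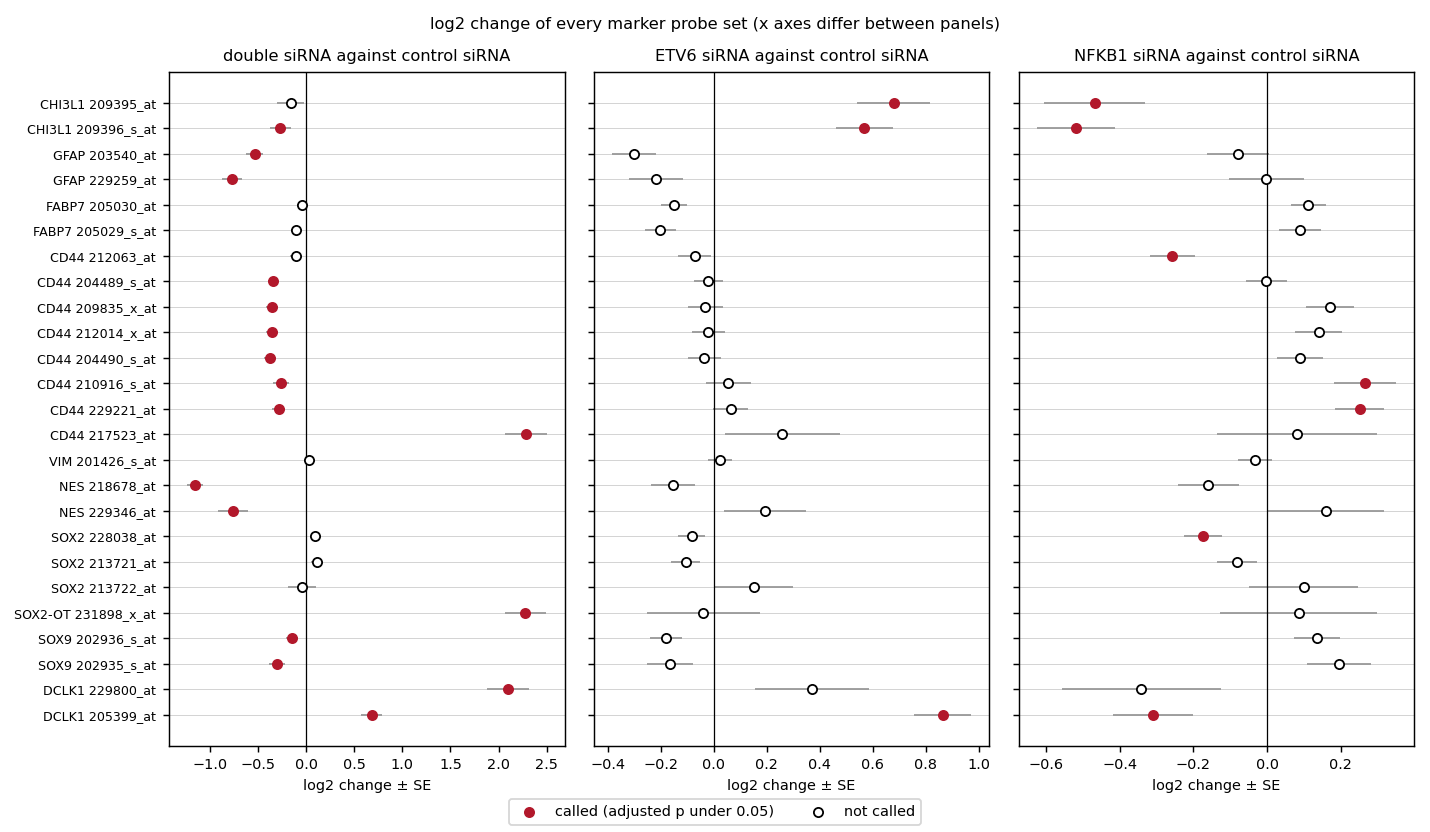
log2 change against control siRNA (x, ± standard error; axes differ between panels) of all 25 marker probe sets with double siRNA, ETV6 siRNA and NFKB1 siRNA, filled where called at an adjusted p under 0.05. With ETV6 siRNA the 3 filled points are both CHI3L1 probe sets and DCLK1 205399_at, while with double siRNA 17 are filled and SOX2-OT, DCLK1 229800_at and CD44 217523_at stand beyond 2.

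CHI3L1 was higher with ETV6 siRNA and lower with NFKB1 siRNA on both probe sets, and among the other markers only 1 of the DCLK1 probe sets was called in both comparisons. On 209395_at its log2 level was 8.04, 7.89 and 8.19 with double siRNA, 9.07, 8.83 and 8.75 with ETV6 siRNA, 7.78, 7.86 and 7.57 with NFKB1 siRNA, and 8.42, 8.27 and 7.91 with control siRNA. All ETV6 siRNA arrays were above and all NFKB1 siRNA arrays below every control array, whereas double siRNA overlapped control. Compared with control, CHI3L1 was 1.60-fold higher with ETV6 siRNA (log2 change 0.68 ± 0.14 SE, adjusted p = 0.0157) and stood at 72.3% with NFKB1 siRNA (-0.47 ± 0.14, adjusted p = 0.0224). ETV6 siRNA exceeded NFKB1 siRNA by 2.22-fold (1.15, adjusted p = 0.000208). With double siRNA the change was -0.16 (adjusted p = 0.297), which left the level 0.84 below that with ETV6 siRNA (adjusted p = 0.000186) and 0.31 above that with NFKB1 siRNA (adjusted p = 0.0543, not called). The second CHI3L1 probe set, 209396_s_at, gave 0.57 with ETV6 siRNA (adjusted p = 0.0109), -0.52 with NFKB1 siRNA (adjusted p = 0.00379) and -0.27 with double siRNA (adjusted p = 0.0389), the last of which was lost in 7 of 21 alternative settings. On this probe set double siRNA was called higher than NFKB1 siRNA (0.25, adjusted p = 0.0428). The order of the groups was thus ETV6 siRNA, control, double siRNA and NFKB1 siRNA on both probe sets. The test of whether the double siRNA effect departs from the sum of the single effects gave -0.37 (adjusted p = 0.0938). The ETV6 call rests on the pooled spread of all groups and on ETV6 siRNA replicate 1: fitted on the compared groups alone its adjusted p was 0.103, and without that replicate the change was 0.59 (adjusted p = 0.0759). For 209396_s_at the adjusted p in the same settings was 0.0834 and 0.0533. The NFKB1 call on 209395_at was lost on the compared groups alone (adjusted p = 0.0682), after quantile normalization (-0.36, adjusted p = 0.0528) and without NFKB1 siRNA replicate 3 (-0.39, adjusted p = 0.0745), control replicate 1 (-0.36, adjusted p = 0.0645) or control replicate 2 (-0.43, adjusted p = 0.0606).

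The CHI3L1 promoter is shown because CHI3L1 was called with both single siRNAs on each probe set. These are the 250 bases before the RefSeq start on the minus strand of GRCh38.p14, chr1:203186705-203186954, with the ETS core GGAA in capitals on either strand (TTCC is the core on the other strand).
CHI3L1: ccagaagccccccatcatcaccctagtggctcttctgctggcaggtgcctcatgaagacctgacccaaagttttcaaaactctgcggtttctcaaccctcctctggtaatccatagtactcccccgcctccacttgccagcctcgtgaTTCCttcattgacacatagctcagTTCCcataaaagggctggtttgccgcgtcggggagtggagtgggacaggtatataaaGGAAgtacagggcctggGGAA
The window holds 4 ETS cores, starting 102, 78, 21 and 4 bases before the start, and a TATAAA box starting at 27. At least 1 GGAA is found in 92.7% of the 35116 RefSeq windows of this length, and TATAAA in 10.7%. Neither the longer ETS site CCGGAAGT (3.4% of windows) nor a loose NF-kB pattern of GGG and CC with 5 free bases between them (54.4%) occurs in these letters on either strand. RefSeq promoters were found for 8 of the 10 genes, with 12 start sites. The matches are a description of letters, and no binding was measured.

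CD44 was read by 8 probe sets that did not move together, so no single direction describes it. The brightest, 212063_at, had log2 levels of 13.22, 13.21 and 13.30 with double siRNA, 13.26, 13.34 and 13.24 with ETV6 siRNA, 13.13, 13.13 and 13.02 with NFKB1 siRNA, and 13.40, 13.38 and 13.26 with control siRNA. The NFKB1 siRNA arrays were below all the others, and the remaining groups overlapped. With NFKB1 siRNA it fell to 83.7% of control (-0.26 ± 0.06, adjusted p = 0.00816), which was not called once arrays were shifted to the same median (-0.17, adjusted p = 0.0566) or with the compared groups alone (adjusted p = 0.0608). The change was -0.07 with ETV6 siRNA (adjusted p = 0.600) and -0.11 with double siRNA (adjusted p = 0.123). Shifted to the same median, the double siRNA change became -0.22 and was called (adjusted p = 0.00917).

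The 6 next brightest CD44 probe sets (204489_s_at, 209835_x_at, 212014_x_at, 204490_s_at, 210916_s_at and 229221_at) fell with double siRNA by 0.26 to 0.38 on the log2 scale, each called, with adjusted p between 0.000192 and 0.0146. In none of the 6 did a double siRNA array overlap a control array, but overlap was not counted over all probe sets. The 6 read the same gene, and 76.4% of all probe sets were called in this comparison. With NFKB1 siRNA none of these 6 was called lower, 210916_s_at (0.27, adjusted p = 0.0312) and 229221_at (0.25, adjusted p = 0.0138) rose, and the other 4 lay between -0.002 and 0.17. Thus 1 CD44 probe set was called lower and 2 were called higher with NFKB1 siRNA. The calls of 210916_s_at with NFKB1 siRNA did not hold on the compared groups alone (adjusted p = 0.133) or without 5 of the 12 arrays in turn. With ETV6 siRNA all 8 lay between -0.07 and 0.26 and none was called. The eighth, 217523_at, had 7.28, 6.39 and 7.14 with double siRNA, 5.00, 4.94 and 4.80 with ETV6 siRNA, 4.71, 4.82 and 4.68 with NFKB1 siRNA, and 4.64, 4.31 and 5.02 with control siRNA. Its measured value was higher with double siRNA by 2.28 ± 0.22 (adjusted p = 9.42e-06), opposite to the other called CD44 probe sets. It lay between the 0.2th and the 27.9th percentile of its array and is not shown to be above background, so no fold is given, and its differences below are of measured values only. The files do not say which CD44 transcripts each probe set reads, and the 2 whose names end in _x_at can share probes with other transcripts.

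GFAP was lower with double siRNA on both probe sets, and the single siRNAs gave no call. On 203540_at the log2 level was 13.00, 12.82 and 13.09 with double siRNA, 13.31, 13.17 and 13.13 with ETV6 siRNA, 13.51, 13.45 and 13.34 with NFKB1 siRNA, and 13.59, 13.50 and 13.43 with control siRNA. The double siRNA arrays were below all others, the ETV6 siRNA arrays below all control and NFKB1 siRNA arrays, and NFKB1 siRNA overlapped control. GFAP with double siRNA stood at 68.9% of control (-0.54 ± 0.08, adjusted p = 0.000170). The second probe set, 229259_at, stood at 58.7% (-0.77 ± 0.10, adjusted p = 5.87e-05). ETV6 siRNA gave -0.30 ± 0.08 on 203540_at (adjusted p = 0.0592) and -0.22 on 229259_at (adjusted p = 0.272). The first of these was called when probe sets in the lowest quartile were left out of the adjustment (adjusted p = 0.0419), with array weights (adjusted p = 0.0177) and with a variance trend (adjusted p = 0.0184). NFKB1 siRNA gave -0.08 (adjusted p = 0.489) and 0.00 (adjusted p = 0.991). In the order control, NFKB1 siRNA, ETV6 siRNA, double siRNA, only the last step was called on 203540_at, double siRNA being 0.24 below ETV6 siRNA (adjusted p = 0.0217). That step lost its call without double siRNA replicate 2 (-0.16, adjusted p = 0.101) or ETV6 siRNA replicate 1 (-0.18, adjusted p = 0.0888).

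Nestin was lower with double siRNA on both probe sets, and NES 218678_at had the largest fall of the 25 marker probe sets. NES 218678_at had log2 levels of 10.18, 10.18 and 10.14 with double siRNA, 11.16, 11.21 and 11.16 with ETV6 siRNA, 11.20, 11.11 and 11.20 with NFKB1 siRNA, and 11.52, 11.32 and 11.14 with control siRNA. The 3 double siRNA arrays were far under all 9 others, which overlapped. NES stood at 44.8% of control with double siRNA (-1.16 ± 0.08, adjusted p = 4.07e-06), at 49.8% of ETV6 siRNA (adjusted p = 5.78e-06) and at 50.0% of NFKB1 siRNA (adjusted p = 1.29e-06). With ETV6 siRNA the change was -0.15 (adjusted p = 0.346) and with NFKB1 siRNA -0.16 (adjusted p = 0.152), with a difference of 0.01 between them (adjusted p = 0.968). The dimmer probe set 229346_at had the same direction with double siRNA (-0.76 ± 0.16, adjusted p = 0.00109) and gave 0.19 with ETV6 siRNA (adjusted p = 0.579) and 0.16 with NFKB1 siRNA (adjusted p = 0.442). It lay between the 2.9th and the 32nd percentile of its array and is not shown to be above background, so its differences are of measured values only. Among probe sets of the same quartile of mean level as 218678_at, the 10th percentile of the double siRNA change was -0.60 and the median -0.09.

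Vimentin was not called in any comparison of the reported fit. With a variance trend and robust fit all 10 genes, VIM among them, were called for double against NFKB1 siRNA. Every double siRNA array was narrowly above every control and NFKB1 siRNA array. VIM 201426_s_at had 14.53, 14.52 and 14.52 with double siRNA, 14.50, 14.52 and 14.52 with ETV6 siRNA, 14.46, 14.49 and 14.43 with NFKB1 siRNA, and 14.51, 14.51 and 14.45 with control siRNA. The changes from control were 0.03 (adjusted p = 0.511), 0.02 (adjusted p = 0.857) and -0.03 (adjusted p = 0.611). The highest value of any probe set on an array was 14.65 to 14.75, so VIM was read close to the top of the scale, where a difference can be compressed.

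**Figure D2:**
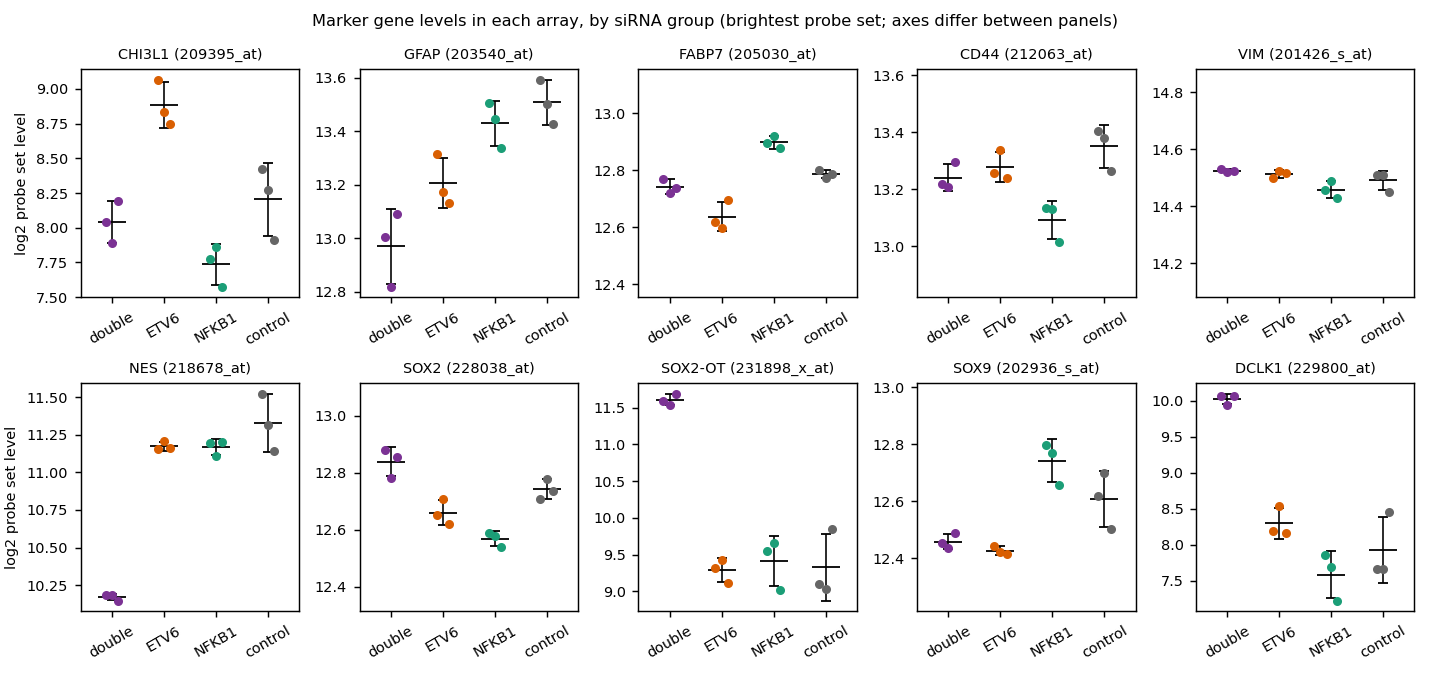
log2 level of the brightest probe set of each of the 10 marker genes in every array (points), with group mean and SD (bars), for double, ETV6, NFKB1 and control siRNA from left to right. Axes differ between panels: the double siRNA arrays stand apart for NES, SOX2-OT and DCLK1, and CHI3L1 is highest with ETV6 siRNA and lowest with NFKB1 siRNA.

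FABP7 was called between the single siRNAs but not between either of them and control. FABP7 205030_at had 12.77, 12.72 and 12.74 with double siRNA, 12.62, 12.60 and 12.69 with ETV6 siRNA, 12.90, 12.92 and 12.88 with NFKB1 siRNA, and 12.80, 12.77 and 12.79 with control siRNA. The groups did not overlap, and the order was NFKB1 siRNA, control, double siRNA and ETV6 siRNA. Against control the changes were -0.04 with double siRNA (adjusted p = 0.416), -0.15 with ETV6 siRNA (adjusted p = 0.0991) and 0.11 with NFKB1 siRNA (adjusted p = 0.0938). ETV6 siRNA was 0.26 ± 0.05 below NFKB1 siRNA (adjusted p = 0.00287), and double siRNA was 0.16 below NFKB1 siRNA (adjusted p = 0.00977). The other probe set, 205029_s_at, gave -0.29 for ETV6 against NFKB1 siRNA (adjusted p = 0.00402) and -0.19 for double against NFKB1 siRNA (adjusted p = 0.00820).

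SOX2 itself moved little, and what moved was lower with NFKB1 siRNA. SOX2 228038_at had 12.88, 12.78 and 12.86 with double siRNA, 12.65, 12.71 and 12.62 with ETV6 siRNA, 12.59, 12.58 and 12.54 with NFKB1 siRNA, and 12.71, 12.78 and 12.74 with control siRNA. The groups did not overlap, the NFKB1 siRNA arrays being lowest and the double siRNA arrays highest, with the lowest double siRNA array next to the highest control array. With NFKB1 siRNA SOX2 stood at 88.7% of control (-0.17 ± 0.05, adjusted p = 0.0230), a call lost when arrays were shifted to the same median (-0.08, adjusted p = 0.258). ETV6 siRNA gave -0.08 (adjusted p = 0.436) and double siRNA 0.10 (adjusted p = 0.103). Double siRNA was above NFKB1 siRNA by 0.27 (adjusted p = 0.000398) and above ETV6 siRNA by 0.18 (adjusted p = 0.00687), neither of which was called after the median shift (0.07, adjusted p = 0.264, and 0.06, adjusted p = 0.340). Of the other SOX2 probe sets, 213721_at gave 0.11 with double siRNA (adjusted p = 0.0834), -0.11 with ETV6 siRNA (adjusted p = 0.331) and -0.08 with NFKB1 siRNA (adjusted p = 0.266). The dim 213722_at gave -0.05, 0.15 and 0.10, none called.

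SOX2-OT, the long non-coding RNA gene whose transcript overlaps SOX2, was higher with double siRNA and gave no call with either single siRNA. The probe set 231898_x_at had 11.60, 11.54 and 11.69 with double siRNA, 9.32, 9.43 and 9.11 with ETV6 siRNA, 9.56, 9.66 and 9.02 with NFKB1 siRNA, and 9.10, 9.03 and 9.85 with control siRNA. All 3 double siRNA arrays were far above every other array, and the 3 other groups overlapped. SOX2-OT was 4.86-fold higher with double siRNA than with control (2.28 ± 0.21, adjusted p = 9.03e-06), 4.99-fold higher than with ETV6 siRNA (adjusted p = 8.27e-06) and 4.57-fold higher than with NFKB1 siRNA (adjusted p = 3.14e-06). The single siRNAs gave -0.04 (ETV6, adjusted p = 0.952) and 0.09 (NFKB1, adjusted p = 0.774). Control replicate 3, the control array with the highest ACTB 3' minus 5' difference, had the highest SOX2-OT level outside double siRNA. The probe set's name ends in _x_at, so it can share probes with other transcripts, and strand cannot be read from these files. Among probe sets of its quartile of mean level the 90th percentile of the double siRNA change was 0.66.

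SOX9 followed FABP7 in the order of the single siRNAs. SOX9 202936_s_at had 12.45, 12.44 and 12.49 with double siRNA, 12.45, 12.42 and 12.41 with ETV6 siRNA, 12.80, 12.77 and 12.66 with NFKB1 siRNA, and 12.62, 12.70 and 12.50 with control siRNA. Double and ETV6 siRNA arrays were below the lowest control array, and NFKB1 siRNA overlapped control. With double siRNA SOX9 stood at 90.2% of control (-0.15 ± 0.06, adjusted p = 0.0469), a call lost in 11 of 21 alternative settings, among them 10 that left out 1 array. ETV6 siRNA gave -0.18 (adjusted p = 0.124) and NFKB1 siRNA 0.14 (adjusted p = 0.113), and the difference between them was -0.32 (adjusted p = 0.00416). The second probe set, 202935_s_at, stood at 81.2% with double siRNA (-0.30 ± 0.09, adjusted p = 0.00763) and gave -0.36 for ETV6 against NFKB1 siRNA (adjusted p = 0.0110).

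DCLK1, a microtubule-associated kinase of the doublecortin family that is made in developing neurons, was higher with double siRNA on both probe sets, while ETV6 siRNA raised 1 of them. DCLK1 229800_at had 10.06, 9.94 and 10.07 with double siRNA, 8.18, 8.54 and 8.16 with ETV6 siRNA, 7.86, 7.69 and 7.22 with NFKB1 siRNA, and 7.66, 7.66 and 8.46 with control siRNA. It was 4.28-fold higher with double siRNA (2.10 ± 0.22, adjusted p = 1.43e-05). ETV6 siRNA gave 0.37 (adjusted p = 0.400) and NFKB1 siRNA -0.34 (adjusted p = 0.239), and both overlapped control, whose replicate 3 was well above the other control arrays. Without control replicate 3 the ETV6 siRNA change was 0.64 and was called (adjusted p = 0.0494).

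The other DCLK1 probe set, 205399_at, had 7.56, 7.62 and 7.58 with double siRNA, 7.84, 7.95 and 7.52 with ETV6 siRNA, 6.62, 6.75 and 6.41 with NFKB1 siRNA, and 6.91, 6.90 and 6.91 with control siRNA. Every double and ETV6 siRNA array was above, and every NFKB1 siRNA array below, the 3 control arrays. The probe set lay between the 15.8th and the 43.6th percentile of its array. It is not shown to be above background, and its folds are of measured values only. It was 1.61-fold higher with double siRNA (0.68 ± 0.11, adjusted p = 0.000185) and 1.82-fold higher with ETV6 siRNA (0.87 ± 0.11, adjusted p = 0.00189), with no call between these groups (-0.18, adjusted p = 0.134). With NFKB1 siRNA it stood at 80.7% (-0.31 ± 0.11, adjusted p = 0.0450), a call lost in 12 of 21 alternative settings. ETV6 siRNA was above NFKB1 siRNA by 1.18 (2.26-fold, adjusted p = 3.99e-05). On this probe set DCLK1 had the same directions with the single siRNAs as CHI3L1, whereas with double siRNA it remained high and CHI3L1 did not. The 2 probe sets differed in the interaction: 2.07 on 229800_at (adjusted p = 0.000114) and 0.13 on 205399_at (adjusted p = 0.448).

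RefSeq gives DCLK1 3 start sites, and these windows are shown because its probe sets disagree, although which start each probe set reads is not in the files. All are 250 bases before a start on the minus strand of GRCh38.p14, with GGAA in capitals on either strand.
DCLK1 at chr13:36131940-36132189: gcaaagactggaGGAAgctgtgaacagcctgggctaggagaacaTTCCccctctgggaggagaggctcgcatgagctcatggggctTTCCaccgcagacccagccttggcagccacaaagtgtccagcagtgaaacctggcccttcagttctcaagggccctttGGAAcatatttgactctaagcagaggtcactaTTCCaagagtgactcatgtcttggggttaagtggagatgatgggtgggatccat
DCLK1 at chr13:36131383-36131632: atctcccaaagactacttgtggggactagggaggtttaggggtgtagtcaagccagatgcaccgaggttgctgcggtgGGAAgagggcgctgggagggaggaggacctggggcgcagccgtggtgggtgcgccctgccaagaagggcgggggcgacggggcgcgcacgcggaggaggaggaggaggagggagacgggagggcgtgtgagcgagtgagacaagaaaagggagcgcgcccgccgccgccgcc
DCLK1 at chr13:35855668-35855917: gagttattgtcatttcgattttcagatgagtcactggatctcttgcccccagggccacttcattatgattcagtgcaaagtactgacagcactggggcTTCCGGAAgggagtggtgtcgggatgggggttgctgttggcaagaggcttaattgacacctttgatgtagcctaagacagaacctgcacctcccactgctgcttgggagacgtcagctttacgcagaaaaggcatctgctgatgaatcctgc
The 3 windows hold 5, 1 and 2 ETS cores in this order, none holds CCGGAAGT, and the loose NF-kB pattern occurs 1, 3 and 0 times on both strands together, where matches can overlap. The median over all windows is 3 for GGAA and 1 for the NF-kB pattern.

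Set beside probe sets of like level, 3 of the 25 marker probe sets rose with double siRNA past the 90th percentile of their quartile. SOX2-OT changed by 2.37 more than the quartile's median, DCLK1 229800_at by 2.21 and CD44 217523_at by 2.14. The lowest quartile of all probe sets had a median change of 0.15 with double siRNA, and the next 3 had -0.05, -0.11 and -0.09, so dim probe sets tended higher and bright ones lower. GFAP 229259_at and both NES probe sets lay below the 10th percentile of their quartiles, by 0.68 (GFAP), 1.06 (NES 218678_at) and 0.90 (NES 229346_at) under the medians. By definition about 10% of all probe sets lie past each of these limits. The count of 3 of 25 on either side is near that share and does not set the markers apart.

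**Figure D3:**
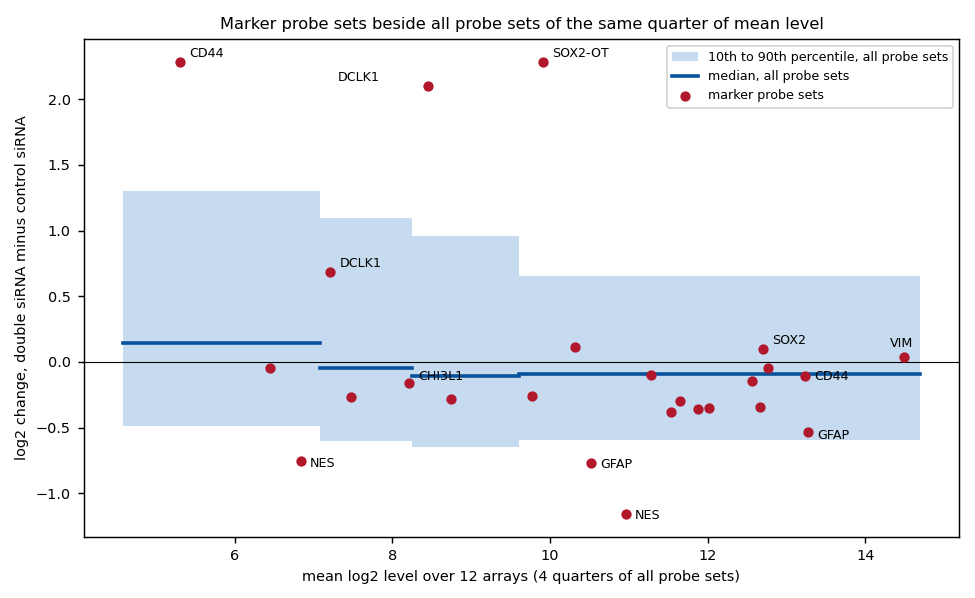
log2 change with double siRNA against control siRNA (y) of the 25 marker probe sets against their mean log2 level (x), with the median and the 10th to 90th percentile of all 17313 probe sets in each quartile of mean level. SOX2-OT, DCLK1 and the dim CD44 probe set lie above the band, and both NES probe sets and 1 GFAP probe set below it.

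Between the knock-downs, 6 of the 10 genes were called for double against ETV6 siRNA (83.4% of all genes) and 17 of 25 probe sets (82.7%). For double against NFKB1 siRNA 8 genes (88.1%) and 22 probe sets (87.3%) were called. ETV6 against NFKB1 siRNA gave 5 genes (27.1%) and 10 probe sets (26.8%). On the brightest probe sets CHI3L1, CD44 and DCLK1 were higher and FABP7 and SOX9 lower with ETV6 siRNA. For CD44 this holds for 212063_at (13.28 with ETV6 siRNA, 13.09 with NFKB1 siRNA). The 6 next brightest CD44 probe sets had lower means with ETV6 than with NFKB1 siRNA, among them 210916_s_at (9.81, against 10.02). Among all called probe sets 70.3% were higher in that comparison, against 45.8% with arrays shifted to the same median and 49.5% after quantile normalization. The interaction, which is the double siRNA effect minus both single effects, was called for 5 genes (84.5%) and 16 probe sets (83.3%). Since most of the array passed in every comparison with double siRNA, these counts do not set the markers apart.

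The 4 probe sets that changed by over 1 log2 unit with double siRNA were set beside the ACTB difference of each array. SOX2-OT, DCLK1 229800_at and CD44 217523_at were high, and NES 218678_at low, on the 3 arrays with a difference above 2. Control replicate 3, at 1.91, had the highest control level for the first 3 and the lowest for NES. The GAPDH 3' minus 5' difference did not set the double siRNA arrays apart (0.46 to 0.51, against 0.37 to 0.54). Whether RNA quality takes part in the changes of these 4 probe sets was not tested.

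**Figure D4:**
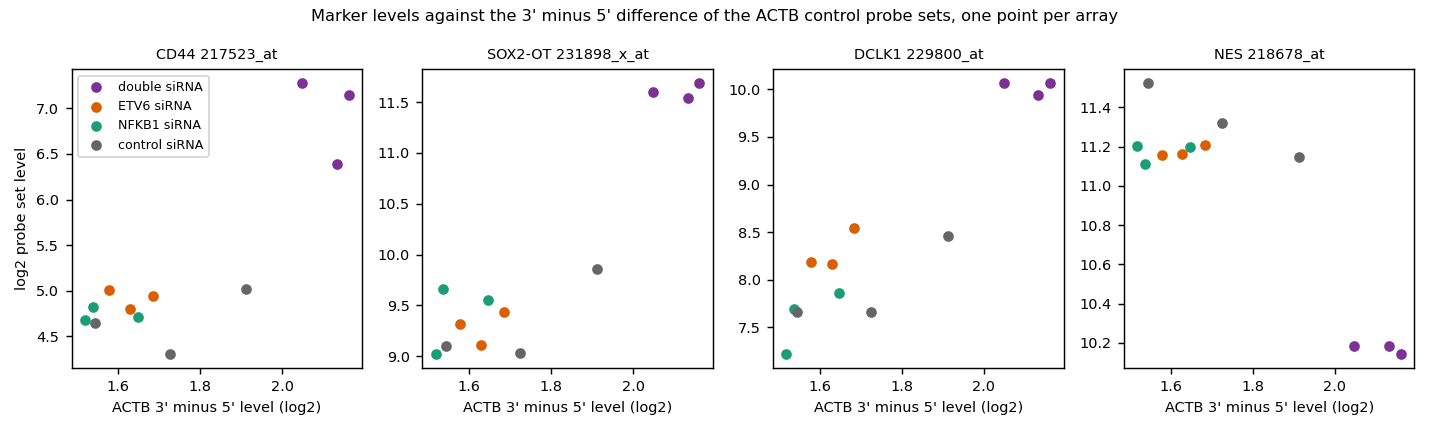
log2 level of SOX2-OT, DCLK1 229800_at, CD44 217523_at and NES 218678_at (y) against the 3' minus 5' difference of the ACTB control probe sets (x, log2), one point per array, coloured by siRNA group. The 3 double siRNA arrays lie at 2.05 to 2.16 on the x axis, apart from the other 9 arrays, and control replicate 3 at 1.91 lies between them and the rest.

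Related genes from lists of the same lineages and pathways were counted in the same fit, on the brightest probe set, and are read against the shares over all genes given above. SOX3, SOX12, FUT4 and RELB lay at or below the 21.0th percentile of every array and are likewise not shown to be above background. Of the astrocyte and radial glia list 15 of 23 genes had a probe set. With ETV6 siRNA none of the 15 was called (at an unadjusted p under 0.05, 2 were higher and 3 lower), FGFR3 (-0.29, adjusted p = 0.0523) having the smallest p. With NFKB1 siRNA 2 rose and 2 fell: the calcium-binding protein S100B rose by 0.49 and the receptor FGFR3 by 0.22, and the glutamate transporter SLC1A3 fell by 0.78 and the gap junction protein GJA1 fell by 0.68. With double siRNA 3 rose and 8 fell (median -0.28, against -0.11 over all genes), PTPRZ1 rising by 1.18 while FGFR3 fell by 0.79, CST3 fell by 0.73 and NDRG2 fell by 0.54.

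Of the neural stem and progenitor list 14 of 23 genes had a probe set, and none was called with ETV6 siRNA (at an unadjusted p under 0.05, 3 were higher and 2 lower), the smallest adjusted p being 0.0625 for ITGA6 (-0.32). NFKB1 siRNA raised FUT4 (0.46), the enzyme that makes the CD15 antigen, and lowered the RNA-binding protein MSI2 (-0.48), integrin ITGA6 (-0.37) and the transcription factor POU3F2 (-0.19). Double siRNA raised 3 and lowered 8 (median -0.28). SOX3 (-0.77) and MYC (-0.71) were lower, and ITGA6 (0.66) and MSI2 (0.79) were higher, both opposite in sign to their change with NFKB1 siRNA.

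The mesenchymal glioma list had 38 of 40 genes. With ETV6 siRNA 1 fell, the receptor tyrosine kinase MET (-0.67, adjusted p = 0.00752), and 0 rose (7 at an unadjusted p under 0.05). With NFKB1 siRNA 9 fell and 1 rose, led by CDH2 (-0.61), MET (-1.08), WWTR1 (-0.55) and YAP1 (-0.86), the last 2 being Hippo pathway co-activators. The list's median with NFKB1 siRNA was -0.02, against 0.02 over all genes. With double siRNA 19 fell and 7 rose (median -0.13, against -0.11 over all genes). The transcription factors CEBPB (-0.61) and RELB (-0.69), the urokinase receptor PLAUR (-0.84) and the adaptor TRADD (-0.53) were lower. Of the genes named for NFKB1 siRNA, CDH2 also had a lower mean log2 level with double siRNA (11.66, against 11.99 in control). The means of MET, WWTR1 (11.93, against 11.46) and YAP1 (10.48, against 10.02) were instead above control, opposite in sign to their change with NFKB1 siRNA.

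Of genes whose products work with the markers, 13 of 15 partners of CD44 and CHI3L1 had a probe set. ETV6 siRNA raised MMP14 (0.28, adjusted p = 0.0234), a membrane protease that cleaves CD44. NFKB1 siRNA lowered MMP14 (-0.33), the hyaluronan-binding proteoglycan VCAN (-0.97) and the hyaluronan synthase HAS3 (-0.47). MMP14 therefore had the same directions as CHI3L1 with both single siRNAs. With double siRNA 5 rose and 6 fell, among them HAS2 (1.45) and the cytoskeletal linker RDX (1.78) higher and MMP14 (-0.72) and TMEM219 (-0.61), a receptor subunit for CHI3L1, lower.

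Intermediate filament partners had 8 of 12 genes. ETV6 siRNA raised the neurofilament NEFL (0.50) and lowered the nuclear lamins LMNB1 (-0.37) and LMNB2 (-0.28) and the linker DST (-0.34). NFKB1 siRNA raised peripherin, PRPH (0.42), and lowered NEFL (-0.75), DST (-0.68) and LMNB1 (-0.29). With double siRNA 7 of the 8 fell (median -0.52, against -0.11 over all genes), among them LMNB2 (-0.74), the cross-linker PLEC (-0.85), LMNA (-0.54) and LMNB1 (-0.50), and DST rose (0.35).

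Other SOX genes had 6 of 16 with a probe set. SOX6 fell with ETV6 siRNA (-1.14, adjusted p = 0.00644) and with NFKB1 siRNA (-0.67, adjusted p = 0.0174), and gave 0.25 with double siRNA (adjusted p = 0.234). It lay between the 0.1th and the 9.6th percentile of its array, so these are differences of measured values of a probe set not shown to be above background. Double siRNA lowered SOX3 (-0.77), SOX12 (-0.78) and SOX13 (-0.53) and raised SOX5 (0.94). Of the proneural and oligodendrocyte list 5 of 15 had a probe set. Myelin basic protein, MBP, and the receptor PDGFRA rose with ETV6 siRNA (0.54 and 0.41) and fell with NFKB1 siRNA (-0.33 and -0.82), the same directions as CHI3L1. With double siRNA both were higher (0.72 and 0.97), unlike CHI3L1, and the oligodendrocyte enzyme CNP was lower (-0.48). MBP lay between the 12.8th and the 31.9th percentile of its array and is likewise not shown to be above background.

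**Figure D5:**
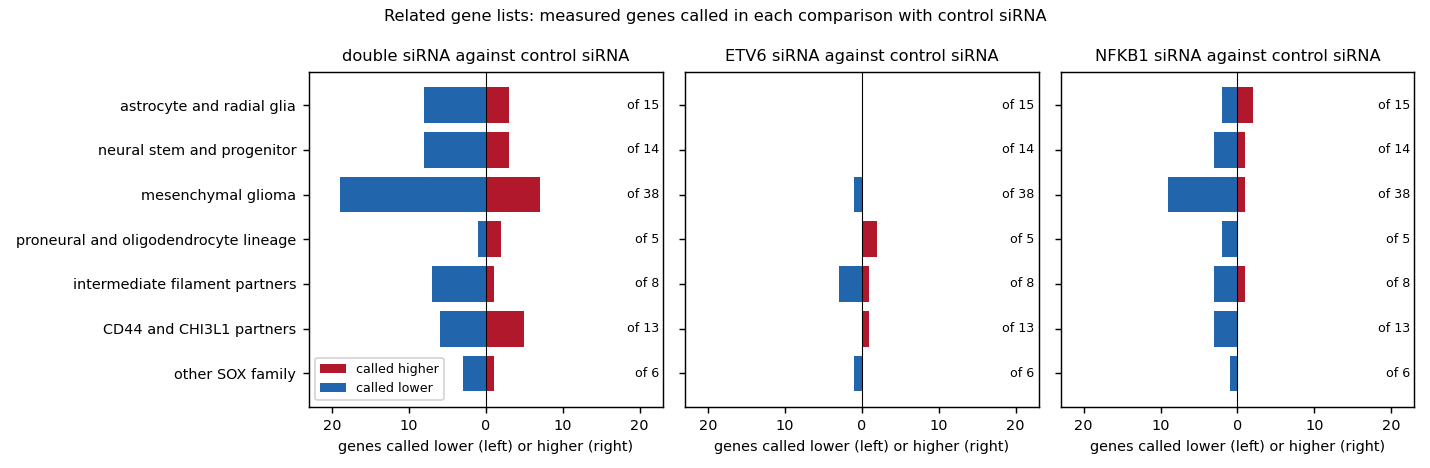
Number of measured genes of each related list called lower (left of 0) and higher (right of 0) against control siRNA, for double, ETV6 and NFKB1 siRNA. With double siRNA 19 of 38 mesenchymal genes were lower and 7 higher, where 45.2% of all genes were called lower and 32.3% higher. With ETV6 siRNA no list had more than 4 calls, where 4.27% of all genes were called lower and 2.59% higher.

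Genes with the pattern most like that of a marker were ranked by Pearson r over the 12 arrays among 8543 other genes. For CHI3L1 these were COL1A2 (0.96), CCL2 (0.95) and SOX4 (0.95), for GFAP UBQLN2 (0.94), MLLT11 (0.93) and ADIPOR1 (0.93), and for SOX2-OT PELI1 (0.99), GSAP (0.99) and KIZ (0.99). The 12 arrays share 4 group means, so a high r here mainly says that 2 genes differ alike between groups. Among the markers themselves, r was 0.95 for SOX2-OT with DCLK1, -0.98 for SOX2-OT with NES, 0.85 for FABP7 with SOX9 and -0.84 for FABP7 with CHI3L1.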

How the data were processed

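Probe set levels of 12 U251 samples on Affymetrix arrays were analysed, 3 per siRNA group, grouped by the labels. The deposited values are on a log2 scale; how the authors corrected background, summarized probes, normalized arrays and selected probe sets is not given in the labels or other sources used here. No genome build is named for them, so promoter coordinates are those of RefSeq on GRCh38.p14. The platform's probe table gave 1 gene for 17313 probe sets, several for 857 and none for 1293, beside 57 control probe sets. No 2 arrays were identical (0 pairs).

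The 10 genes, the related lists and the naming rule were chosen with earlier results of these data known. The rule named every marker with all probe sets, up to 4 genes with the smallest adjusted p per list and comparison, the 3 most alike genes of CHI3L1, GFAP and SOX2-OT, and the targeted genes.

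All 17313 probe sets were fitted at once with limma 3.58.1 in R 4.3.3 (group means, lmFit, eBayes, 8 residual and 3.03 prior degrees of freedom), two-sided, with Benjamini-Hochberg adjustment per comparison and calls at an adjusted p under 0.05. The fit was tested on simulated data. With 3 arrays a group, the smallest p of an exact permutation test is 0.1, so none was run. The number of arrays limits the precision. The 21 alternatives covered scaling, filters, variance models, array weights, the samples fitted, a replicate block and leaving out arrays.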

Additional observations from a re-analysis of the deposited data

Results flagged for a closer look

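The interaction, double siRNA minus ETV6 siRNA minus NFKB1 siRNA plus control siRNA, compares the effect of one siRNA with and without the other. It was called for 16 of the 25 marker probe sets by limma, where 83.3% of all probe sets were called. The ETV6 siRNA effect was thus higher in the presence of NFKB1 siRNA for SOX2-OT (2.23 log2 units), DCLK1 229800_at (2.07), CD44 217523_at (1.94, not shown to be above background), SOX2 228038_at (0.35), SOX2 213721_at (0.30) and CD44 212063_at (0.22). It was lower for NES 229346_at (-1.11, not shown to be above background) and 218678_at (-0.85), for GFAP 229259_at (-0.55) and for SOX9 202935_s_at (-0.33). It was also lower for the 6 other CD44 probe sets, 229221_at (-0.60), 210916_s_at (-0.58), 209835_x_at (-0.50), 212014_x_at (-0.48), 204490_s_at (-0.43) and 204489_s_at (-0.32). With arrays shifted to the same median the values of CD44 212063_at (0.01, adjusted p = 0.892), SOX2 228038_at (0.15, adjusted p = 0.124) and SOX2 213721_at (0.09, adjusted p = 0.288) were not called. CD44 212063_at also lost its call when any 1 of 6 arrays was left out, and SOX9 202935_s_at when any 1 of 3 was left out. The spike-in and ACTB values that set the double siRNA arrays apart enter every one of these terms, and their part was not tested.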

How the results depend on the processing

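Over the 21 alternatives, or 20 for the interaction, which cannot be fitted without the other groups, the count of marker genes called stayed within 1.5 times for double siRNA against control (4 to 7 genes, 5 as reported), against ETV6 siRNA (5 to 7, 6 as reported), against NFKB1 siRNA (6 to 10, 8 as reported) and for the interaction (4 to 7, 5 as reported). For ETV6 siRNA against control the reported 1 became 2 without probe sets under the 25th percentile, 3 with the brightest probe set per gene and that filter, 4 with a variance trend and robust fit, 5 with array weights and 0 when fitted without the other groups, and was 0 to 3 when 1 array was left out. The share of all probe sets called in that comparison ranged from 0.399% to 17.2%, against 6.35%. For NFKB1 siRNA against control the reported 3 became 5 with the variance trend, 6 with array weights and 0 without the other groups, and was 1 to 4 when 1 array was left out, with 18.4% to 50.1% of all probe sets called, against 34.9%. For ETV6 against NFKB1 siRNA the reported 5 became 3 with a replicate block and was 3 to 5 when 1 array was left out. Without ETV6 siRNA replicate 1 no marker gene was called with ETV6 siRNA, and 1 was called with NFKB1 siRNA without NFKB1 siRNA replicate 3 or control replicate 2. Without control replicate 3 the counts were 7 for double, 3 for ETV6 and 4 for NFKB1 siRNA against control. For double against NFKB1 siRNA the median shift reversed CD44 212063_at (-0.05, adjusted p = 0.484) and SOX2 213721_at (-0.005, adjusted p = 0.938). The cause of these changes was not tested, and the fits that leave some arrays out also have fewer arrays. That shift moved the median change of all probe sets to -0.24 for double against NFKB1 siRNA and to -0.26 for the interaction, against -0.04 and -0.05. The labels do not say whether the replicate numbers pair the samples, and same-numbered deviations had correlations of -0.45 to 0.45. Differently numbered ones were not computed, so pairing was not tested. With the replicate block the counts of genes called were 5, 1 and 3 for double, ETV6 and NFKB1 siRNA against control. They were 6 and 9 for double against ETV6 and NFKB1 siRNA and 5 for the interaction. Detection calls were not used here, so dim probe sets cannot be told apart from background.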
